A study of Homo sapiens with 6 samples.

Results

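Intergenic open chromatin 5 to 100 kb from genes was described in GM12878, a B lymphoblastoid line made by transforming B cells with Epstein-Barr virus. Single-base summits on chromosomes 1 to 22 of all 6 deposited lists were chained into 1 region wherever neighbours lay under 500 bp apart, which gave 91874 regions. A region was taken when its midpoint lay outside every protein-coding gene of the RefSeq table for GRCh38, and over 5 kb and at most 100 kb from the nearest protein-coding gene end. Position alone chose the 21222 regions, 23.1% of all. They are called distal regions below. The other regions comprised 13553 within 1 kb of a gene end, 3768 flanking regions 1 to 5 kb outside a gene, 39782 deeper inside genes and 13549 in gene deserts over 100 kb from any gene.

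The study profiled accessibility by transposition in 3 groups of this line, each with 2 libraries of 50000 cells. The H3K27ac high and H3K27ac low groups came from low-passage cells stained for viability, fixed with paraformaldehyde, permeabilised, stained with an antibody to acetylated lysine 27 of histone H3, gated on size and viability and sorted for the stain, and their crosslinks were reversed before DNA was purified. The live control was unsorted, and its DNA was purified straight after transposition. All 6 libraries were transposed for 30 min at 37 °C. Live control and sorted libraries therefore differ in fixation, staining, sorting and crosslink reversal at once, and these cannot be told apart. The protocol text gives the antibody target as H3K37ac at 1 place, while the sample names give H3K27ac. Per the labels counted cells were split into the replicates, so the spread between them may be technical, and all 6 libraries come from 1 cell line.

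Open regions away from gene starts are where most enhancers lie. There, transcription factors displace nucleosomes, and active elements are flanked by nucleosomes acetylated at lysine 27 of histone H3. In B lymphoblastoid cells, Epstein-Barr virus proteins and NF-kB are known to occupy many such elements. Some distal regions are also starts of noncoding transcripts, which protein-coding annotation does not show.

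The starts of long noncoding RNAs are the distal regions for which sequence was at hand, and they show what one kind of distal region consists of. Of the RefSeq starts of long noncoding RNAs in the 5 to 100 kb window with a promoter sequence, 363 held the midpoint of a distal region and 3359 did not, and 180 of the 363 held one called in all 6 libraries. A region is called in a library when at least 1 of its summits is in that list. The 5 with the best worst rank over the 6 lists among transcripts with an approved name are printed, each from 250 bases before to 50 after the start, on hg38 and on the plus strand. Capitals mark matches to GGGCGG (SP1 and KLF family), CCCNNGGG (EBF1) or TGANTCA (AP-1) on either strand. The windows are chr4:52712144-52712443 for DANCR, chr7:152463874-152464173 for LINC01003, chr7:39733318-39733617 for LINC00265, chr9:94166008-94166307 for MIRLET7A1HG and chr6:158869779-158870078 for LINC02901. The start of MIR17HG at chr13:91347437-91347736, the host of the miR-17 cluster, was added after its values were seen.
DANCR: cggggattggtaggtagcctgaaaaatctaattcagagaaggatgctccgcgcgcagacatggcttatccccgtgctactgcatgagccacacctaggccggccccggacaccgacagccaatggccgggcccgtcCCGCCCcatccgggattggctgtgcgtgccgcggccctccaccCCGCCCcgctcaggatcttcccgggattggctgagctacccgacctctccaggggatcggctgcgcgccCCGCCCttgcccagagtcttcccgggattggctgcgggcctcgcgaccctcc
LINC01003: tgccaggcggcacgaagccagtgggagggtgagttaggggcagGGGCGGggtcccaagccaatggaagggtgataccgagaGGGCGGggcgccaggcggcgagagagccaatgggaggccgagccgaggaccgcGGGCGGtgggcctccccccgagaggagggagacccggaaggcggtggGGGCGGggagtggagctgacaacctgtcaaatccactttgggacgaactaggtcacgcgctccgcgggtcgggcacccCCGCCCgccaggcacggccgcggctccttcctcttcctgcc
LINC00265: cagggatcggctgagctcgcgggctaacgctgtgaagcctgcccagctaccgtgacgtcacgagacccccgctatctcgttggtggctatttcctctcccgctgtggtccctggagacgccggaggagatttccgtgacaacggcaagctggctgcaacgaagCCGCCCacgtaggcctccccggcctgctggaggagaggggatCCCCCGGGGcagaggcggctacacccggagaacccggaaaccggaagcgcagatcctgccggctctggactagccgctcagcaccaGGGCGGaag
MIRLET7A1HG: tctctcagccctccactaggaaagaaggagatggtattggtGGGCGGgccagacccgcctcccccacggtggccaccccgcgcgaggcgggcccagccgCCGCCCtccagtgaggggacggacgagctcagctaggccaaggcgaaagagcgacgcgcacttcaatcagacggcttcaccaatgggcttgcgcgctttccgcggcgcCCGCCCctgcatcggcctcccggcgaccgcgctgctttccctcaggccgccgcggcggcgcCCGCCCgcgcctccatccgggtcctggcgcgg
LINC02901: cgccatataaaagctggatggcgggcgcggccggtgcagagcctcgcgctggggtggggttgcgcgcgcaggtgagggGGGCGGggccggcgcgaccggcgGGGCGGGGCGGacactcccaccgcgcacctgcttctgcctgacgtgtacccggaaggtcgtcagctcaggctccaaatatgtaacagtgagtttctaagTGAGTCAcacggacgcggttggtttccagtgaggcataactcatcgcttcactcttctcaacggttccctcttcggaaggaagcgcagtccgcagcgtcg
MIR17HG: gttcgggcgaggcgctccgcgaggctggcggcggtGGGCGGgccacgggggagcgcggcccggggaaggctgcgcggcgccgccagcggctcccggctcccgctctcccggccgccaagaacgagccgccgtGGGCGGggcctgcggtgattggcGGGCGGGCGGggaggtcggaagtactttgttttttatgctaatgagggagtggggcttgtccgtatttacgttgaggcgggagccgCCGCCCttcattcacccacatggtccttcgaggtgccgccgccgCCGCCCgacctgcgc

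All 6 printed starts held GGGCGG on 1 strand or the other, LINC00265 also held CCCNNGGG and LINC02901 also held TGANTCA. The 180 starts with a region in all 6 libraries had a median G and C content of 60.3%, against 48.0% for the 3359 starts in the window without a distal region and 62.7% for 21156 protein-coding starts. GGGCGG lay in 48.9% of the 180, in 15.5% of the 3359 and in 45.0% of all 33725 starts of that length. CCCNNGGG lay in 17.8% of the 180, 12.6% of the 3359 and 19.1% of all starts. TGANTCA lay in 13.9% of the 180, 11.2% of the 3359 and 7.67% of all starts. The motif CCACNAGGG of CTCF, the insulator protein, was in 1.67% of the 180 and 1.48% of all starts, and GGGAATTCC of NF-kB was in 0 of the 180 and 0.231% of all starts. The remaining motifs searched went both ways between the 180 and the 3359. GAGGAAGT (ETS) lay in 4.44% and 2.11%, CAGCTG (E-box) in 26.1% and 18.9% and GCGCATGCG (NRF1) in 3.33% and 0.476%. Lower in the 180 were TGTGGTT (RUNX) at 4.44% and 6.64% and GAAANNGAA (IRF) at 5.56% and 10.7%. So were TANNNTA (MEF2) at 25.0% and 41.8% and ATGCAAAT (OCT) at 1.11% and 2.47%. Matches describe letters in these windows and were not tested as sites.

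DANCR, a snoRNA host transcript that also carries MIR4449, had its region 30181 bp from ERVMER34-1, and it ranked 320 and 628 in the live control lists, 1003 and 382 in the high lists and 788 and 387 in the low lists, where rank 1 is the best score of a list. All 6 ranks lay within the best 1003 regions. LINC01003 lay 27968 bp from KMT2C, which encodes a histone methyltransferase of enhancers, and ranked 824 and 1156 in live, 63 and 184 in high and 84 and 51 in low libraries. MIRLET7A1HG, the host of 3 let-7 microRNAs, ranked 508 and 538 in live, 1633 and 870 in high and 165 and 267 in low libraries. MIR17HG, known for its amplification and high expression in B cell lymphoma, ranked 7941 and 6883 in live, 2033 and 2851 in high and 4477 and 7255 in low libraries. The lists differ in length, so ranks are positions within a list, and no change is read from them.

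Both let-7 and miR-17 hosts are precursors of microRNAs that silence messenger RNAs through their seeds, and the mature sequences from RefSeq follow because they are the products of transcripts that begin at these distal regions. Capitals mark the seed, bases 2 to 8. The 3 let-7 members share the seed GAGGUAG. Within the miR-17 cluster, miR-17-5p and miR-20a-5p share AAAGUGC, miR-19a-3p and miR-19b-3p share GUGCAAA, and miR-18a-5p and miR-92a-3p each have another seed.
hsa-let-7a-5p: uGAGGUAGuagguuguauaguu
hsa-let-7f-5p: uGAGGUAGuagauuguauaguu
hsa-let-7d-5p: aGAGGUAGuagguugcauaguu
hsa-miR-17-5p: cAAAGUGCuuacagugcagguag
hsa-miR-20a-5p: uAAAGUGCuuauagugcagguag
hsa-miR-18a-5p: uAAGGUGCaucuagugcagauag
hsa-miR-19a-3p: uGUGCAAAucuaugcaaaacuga
hsa-miR-19b-3p: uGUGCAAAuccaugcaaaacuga
hsa-miR-92a-3p: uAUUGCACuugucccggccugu

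The lists held 66381 and 68626 regions in the live control, 24326 and 44046 in high and 39714 and 49111 in low libraries, and H3K27ac high replicate 1 stood apart with the shortest. Read depth is unknown, so comparisons across libraries used the best 24326 regions of each. As a check of the cell type, a region in all 6 libraries lay at an end of 3 of 6 B cell markers (PAX5, MS4A1 and CD79B), 2 of 4 T cell markers (CD2 and CD3E), and 0 of 2 NK, 0 of 4 myeloid and 0 of 3 erythroid markers.

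Distal regions were called in 15170 and 15722 cases in the live control libraries, 4526 and 9499 in high and 8198 and 10733 in low libraries. Their scores ranked far below those of gene ends. On a percentile scale where 100 is the best region of a list, the median distal region stood at 45.88 and 46.01 in live, 42.77 and 42.97 in high and 42.19 and 43.22 in low libraries. Gene-end regions stood at 81.75 and 82.02, 68.00 and 77.01, and 81.04 and 82.14 in the same order. The mean difference from gene ends was -34.8 points (SD 5.06, n = 6 libraries), of the same sign in every library (exact sign-flip test, p = 0.0312, Benjamini-Hochberg adjusted p = 0.0417 over 4 comparisons, two-sided). That is the smallest p that 6 libraries can give.

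Against flanking regions the difference was -1.33 points (SD 0.372, n = 6; exact sign-flip test, adjusted p = 0.0417), and against gene deserts 7.34 points (SD 3.05, n = 6; exact sign-flip test, adjusted p = 0.0417). Both kept 1 sign in 6 of 6 libraries. Against regions inside genes the difference was -0.149 points, between -0.485 and 0.483 in single libraries and below 0 in 4 of 6 (exact sign-flip test, adjusted p = 0.375). With any 1 library left out, the differences from gene ends, flanks and deserts kept their sign with an adjusted p of 0.0833 by the same exact test, since 5 libraries cannot give a raw p below 0.0625. Among only the best regions of each library, or with a score of at least 5, those from gene ends and deserts kept their sign with an adjusted p of 0.0625 (exact sign-flip test), and the difference from flanks was 0.712 and -0.485 points.

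**Figure D1:**
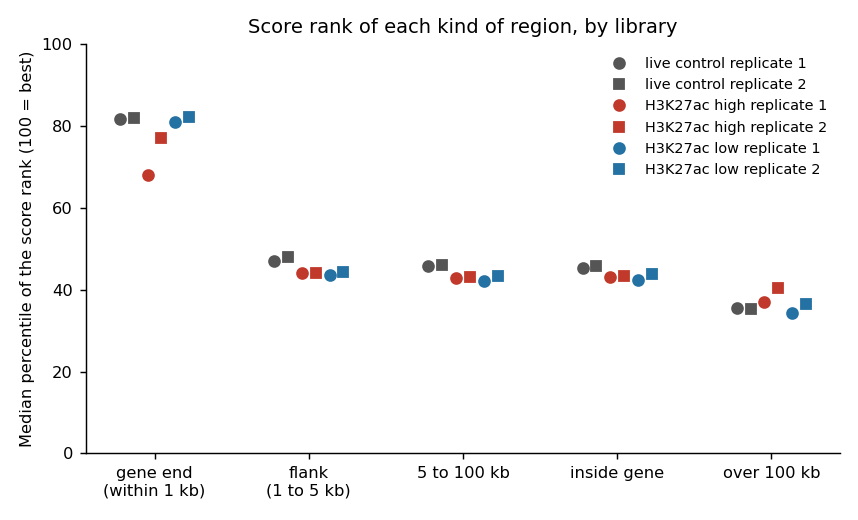
Median percentile of the score rank (vertical axis, 100 is the best region of a list) for 5 kinds of region by distance to protein-coding genes, 1 point per library, coloured by group and shaped by replicate. Distal regions at 5 to 100 kb sit between 42.19 and 46.01, close to regions inside genes, below every gene-end point and above every gene-desert point.

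Among the best 24326 regions, distal regions made up 19.36% and 19.09% in the live control (mean 19.23% ± 0.186, SD, n = 2), 18.61% and 18.75% in high (18.68% ± 0.105, n = 2) and 18.22% and 18.43% in low libraries (18.32% ± 0.151, n = 2). No group overlapped another. The high libraries exceeded the low libraries by 0.358 points (exact permutation test, p = 0.333, the smallest that 2 against 2 allows). The 4 sorted libraries minus the 2 live libraries gave -0.726 points (exact permutation test, p = 0.0667, the smallest that 4 against 2 allows). Over the full lists, whose lengths differ, high minus low turned to -1.16 points, and with 10 classes of gene density weighted alike it was 0.00327 points.

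Nearer the top of the lists the low libraries held fewer distal regions. Among the best 2432 regions of each library, a depth added after the data were seen, distal regions made up 8.68% and 9.01% in live, 10.4% and 8.35% in high and 5.43% and 5.67% in low libraries. The Wilson 95% intervals of the low libraries, 4.6% to 6.4% and 4.82% to 6.67%, did not reach those of the other 4, whose lowest bound was 7.31%, and they cover counting error only. The high minus low difference was 3.82 points (exact permutation test, p = 0.333, the smallest possible), and 2.56 points with gene density weighted alike. Desert regions and regions inside genes had the same order, at 5.43% and 17.5% of these best regions in high and 1.6% and 11.2% in low libraries, while gene ends made up 66.2% in high and 80.6% in low libraries. The lower share is thus not particular to distal regions.

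**Figure D2:**
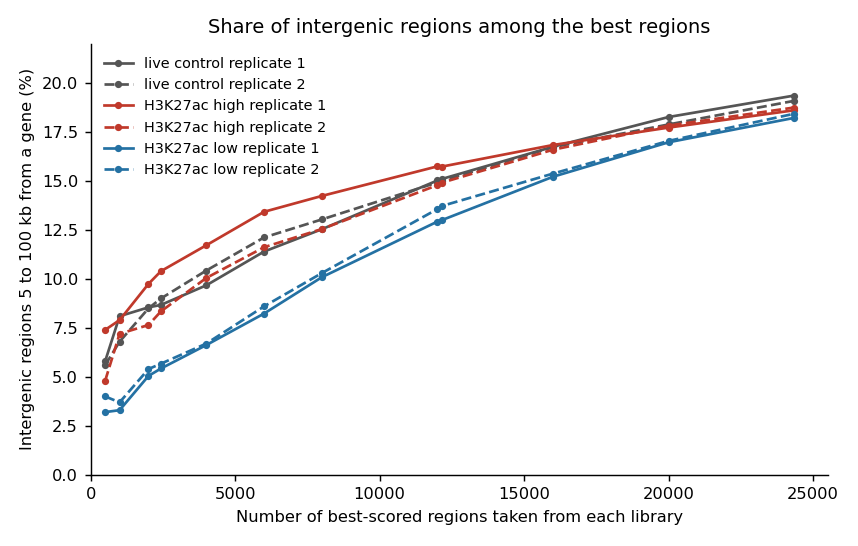
Share of distal regions (vertical axis, percent) among the best-scored regions of each library (horizontal axis, number taken), 1 line per library, with replicate 2 dashed. The low libraries run lowest, at 5.43% and 5.67% of the best 2432, and the 6 lines close to between 18.22% and 19.36% at 24326.

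Distal regions grew sparser with distance from the gene. Per Mb of intergenic sequence there were 40.9 regions at 5 to 10 kb, 38.0 at 10 to 20 kb, 33.4 at 20 to 35 kb, 30.9 at 35 to 50 kb, 28.6 at 50 to 75 kb and 25.1 at 75 to 100 kb, against 15.1 in gene deserts. The share called in all 6 libraries hardly followed, between 15.0% and 17.1% in these 6 bins and 12.5% in deserts. Just inside and outside the limits the density was 38.1 per Mb at 4 to 5 kb and 41.3 at 5 to 6 kb, and 24.5 at 95 to 100 kb and 23.8 at 100 to 105 kb. Beside gene starts alone it was 30.5 at 4 to 5 kb and 39.1 at 5 to 6 kb, and beside stops 46.6 and 44.6. For the 16862 regions whose nearest gene has a known strand, density was 33.6 per Mb nearest to gene starts and 33.4 nearest to gene stops. At 1 to 5 kb, closer than the distal window, it was 34.0 beside starts and 46.6 beside stops. Intergenic sequence was counted over whole chromosomes, assembly gaps included. The median distance of the distal regions among the best 24326 was 23676 and 23771 bp in live, 26293.5 and 25427 bp in high and 25104 and 24440 bp in low libraries, a high minus low difference of 1090 bp (exact permutation test, p = 0.333).

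**Figure D3:**
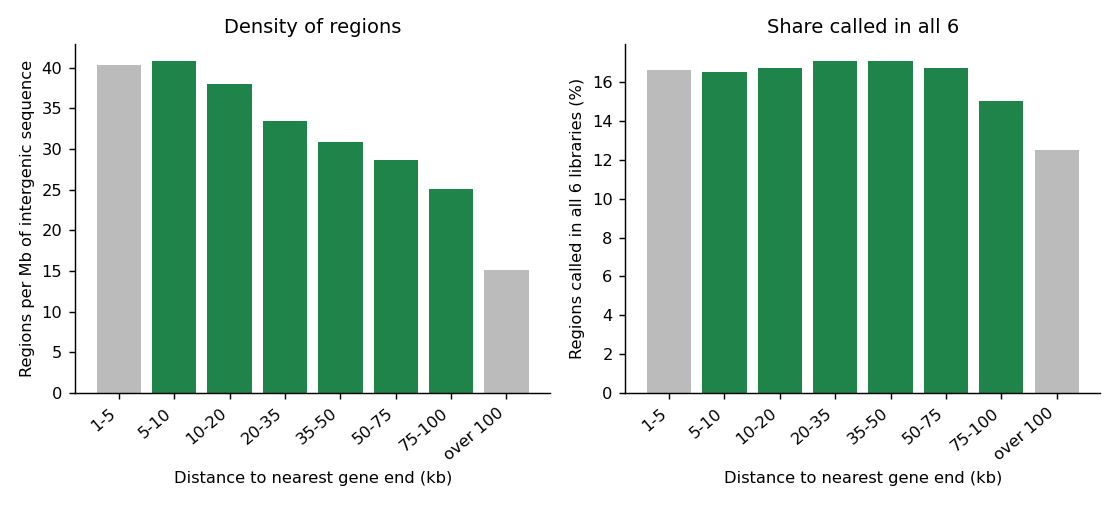
Regions per Mb of intergenic sequence (left) and percent of regions called in all 6 libraries (right) by distance to the nearest protein-coding gene end in kb, with the distal bins in green and the neighbouring bins in grey. Density falls from 40.9 per Mb at 5 to 10 kb to 25.1 at 75 to 100 kb, while the share called in all 6 stays between 15.0% and 17.1%.

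In all, 3530 distal regions (16.6%) were called in all 6 libraries, against 21.7% of all 91874 regions and 53.7% of gene-end regions. Flanking regions stood at 16.6%, regions inside genes at 17.2% and deserts at 12.5%, so the distal share is not particular to the window. At equal list length the count was 2253 (10.6%), against 15.8% of all regions, 10.2% of flanking regions and 10.8% inside genes. Another 7098 (33.4%) were in 1 list only, against 32.5% of all regions and 33.4% inside genes. Of these, 2672 were in live control replicate 2 and 2351 in live control replicate 1, the longest lists. The count in all 6 was limited by the shortest list: 5798 were called in all 5 others without H3K27ac high replicate 1. Among the 3530, ranks correlated across regions with Spearman's rho of 0.854 between the live libraries, 0.701 between both high and 0.817 between both low libraries. Across groups rho lay between 0.575 and 0.804, and these coefficients describe the same regions in libraries of different list length.

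The 10 distal regions with the best worst rank held all 6 ranks within the best 1003. First came chr2:64751048-64751289, in intergenic sequence 95945 bp from LOC124907776, with ranks of 86 and 162 in live, 394 and 189 in high and 462 and 331 in low libraries. Next was chr14:100193008-100193073, 26154 bp from DEGS2, a sphingolipid enzyme gene, and 46104 bp from YY1, a zinc finger factor that takes part in enhancer looping. It ranked 279 and 552 in live, 433 and 516 in high and 139 and 173 in low libraries. Further regions of the 10 lay between RASGEF1B and HNRNPD, an mRNA decay factor, 6347 bp from GARIN3, 98571 bp from the chromatin remodeller CHD1, and between IKZF2 and SPAG16. The CHD1 region, chr5:99027563-99027593, ranked 437 and 717 in live, 30 and 72 in high and 793 and 639 in low libraries. The IKZF2 region, chr2:213233248-213233320, lay 80828 bp from this Ikaros family gene and ranked 711 and 831 in live, 80 and 354 in high and 816 and 495 in low libraries. The other 4 lay nearest to LOC107987020, SPDYE6, ARHGAP42 and ERVMER34-1, the last being the DANCR start. The LOC107987020 and SPDYE6 regions lay at the starts of the long noncoding RNAs LOC100132249 and LOC100630923. The HNRNPD and ARHGAP42 regions lay inside or within 1 kb of the long noncoding RNA genes LOC105377308 and LOC124902736.

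Regions held at equal length by both libraries of 1 sorted group and neither of the other were few. There were 229 high-only distal regions (1.08%, against 0.971% of all regions) and 279 low-only regions (1.31%, against 1.33%), shares near the background in both cases. Of the high-only regions, 213 were called further down a low list and 210 were in both live lists. Of the low-only regions, 246 were in the longer list of H3K27ac high replicate 2 and 268 in both live lists. Leaving out a library, so that 1 of a pair had to hold or lack the region, moved the high-only count to 708 and 1138 without high replicates 1 and 2 and to 419 and 441 without low replicates 1 and 2. The low-only count moved to 755 without high replicate 2, and to 709 and 757 without low replicates 1 and 2.

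The high-only region with the best worst rank, chr2:156342550-156342551, lay 9829 bp from NR4A2, an orphan nuclear receptor gene induced by activation, at the noncoding gene FLJ46875. It ranked 3411 and 10167 in the high lists and was in none of the other 4 lists. The next 5 were all called in all 6 lists. ADM, the adrenomedullin gene, had a region ranking 10336 and 10916 in high, 25993 and 36307 in low and 24702 and 13623 in live libraries. PTTG1, the securin gene, had one ranking 9048 and 11938 in high, 29415 and 26966 in low and 17356 and 26365 in live libraries. The remaining 3 lay nearest to CXADR, KLHL36 and OR2AG2.

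Low-only regions led with chr19:4759928-4760081, 31730 bp from FEM1A, which ranked 9948 and 8891 in low, 16634 and 13905 in live and 24834 in high replicate 2. A region 12322 bp from EIF1, a translation start factor gene, ranked 9768 and 10327 in low, 15228 and 24444 in live and 26954 in high replicate 2. NECAP2, an endocytosis gene, had one ranking 12038 and 5783 in low, 16521 and 5011 in live and 26102 in high replicate 2. TTC7B, DGCR6L and ZBTB42 followed. None of these 6 was in the list of high replicate 1, which follows from the rule, since that list holds exactly the best 24326.

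Sorted-only regions, in all 4 sorted libraries and neither live library at equal length, numbered 110 (0.518%, against 0.577% of all regions). Live-only regions numbered 240 (1.13%, against 0.848%). The sorted-only count was 234 and 229 without live replicates 1 and 2 and 179 without high replicate 1. The live-only count was 563 and 622 without live replicates 1 and 2. All 110 sorted-only regions were called further down a live list, and 227 of the 240 live-only regions were called in a sorted list. Of the 6 leading sorted-only regions, 2 lay beside S1PR1, the sphingosine-1-phosphate receptor that guides lymphocytes out of lymphoid tissue. The region at chr1:101293626-101293801, 51400 bp from S1PR1, ranked 45616 and 37082 in live, 2870 and 11131 in high and 8174 and 11306 in low libraries. That at chr1:101248006-101248065, 5722 bp away, ranked 27701 and 25808 in live, 2911 and 12726 in high and 11088 and 10810 in low libraries. BTG1, an antiproliferative gene often mutated in B cell lymphoma, had one 75014 bp away that ranked 39122 and 24329 in live, 13055 and 11903 in high and 13186 and 10973 in low libraries. FRG2B, GSAP and EVA1A were nearest to the other 3.

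Of the 240 live-only regions 13 were in no sorted list, and 2 of these were among the 6 leading ones. One lay 8269 bp from EAPP, an E2F-binding protein gene, and ranked 10305 and 12106 in the live lists. The other lay 6829 bp from DYNC1H1, the dynein heavy chain gene, and 17470 bp from the chaperone gene HSP90AA1, and ranked 7898 and 12523. A region 14368 bp from HLA-F ranked 12077 and 13479 in live, 25194 in high replicate 2 and 27128 and 38937 in low libraries. RTN4R, MMP14 and JRKL were nearest to the remaining 3.

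Distal regions were unevenly spread over genes. Each was assigned to the protein-coding gene whose start or stop lay closest, and counts were set against the 642 Mb of sequence 5 to 100 kb from genes, 33.0 regions per Mb overall with 5.49 per Mb called in all 6. Around 30 genes that serve NF-kB or B cell activation there were 98.5 per Mb, 25.9 in all 6, and 13 of the 30 genes had a region in all 6. Around 21 genes targeted by Epstein-Barr virus factors or serving survival there were 65.9 per Mb, 18.3 in all 6, with 13 of 21 genes. B cell identity genes had 57.7 and 9.27 per Mb, MHC genes 66.7 and 9.34, chemokine and receptor genes 59.4 and 15.2, and interferon response genes 78.9 and 12.6. Ribosomal protein genes, not specific to B cells, had 53.6 and 9.45, and T and NK cell markers 49.0 and 10.6. As a share of regions, 26.3% were in all 6 for NF-kB and activation, 27.8% for virus-targeted and survival and 25.6% for chemokine genes. The share was 16.1% for B cell identity, 14.0% for MHC, 16.0% for interferon, 17.6% for ribosomal and 21.7% for T and NK genes. Over all distal regions it was 16.6%.

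At the other end, 18 myeloid markers had 23.2 regions per Mb and 0 of 12 regions in all 6 libraries. Neural developmental genes had 28.1 and 4.19 per Mb, below the values over all genes. Erythroid and megakaryocyte markers had 38.3 and 4.5, and 10 of their 17 regions were nearest to TFRC, the transferrin receptor gene. The lists were drawn up with earlier results of these data known, sizes differ, and no list was tested. Of the 99 regions around NF-kB and activation genes 2 were high-only and 4 low-only, and of the 47 around neural genes 2 and 0. Over all distal regions the shares were 1.08% and 1.31%. The counts of 2, 4 and 2 are larger shares than these, but too small to be read. No other list had more than 1 of either kind.

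**Figure D4:**
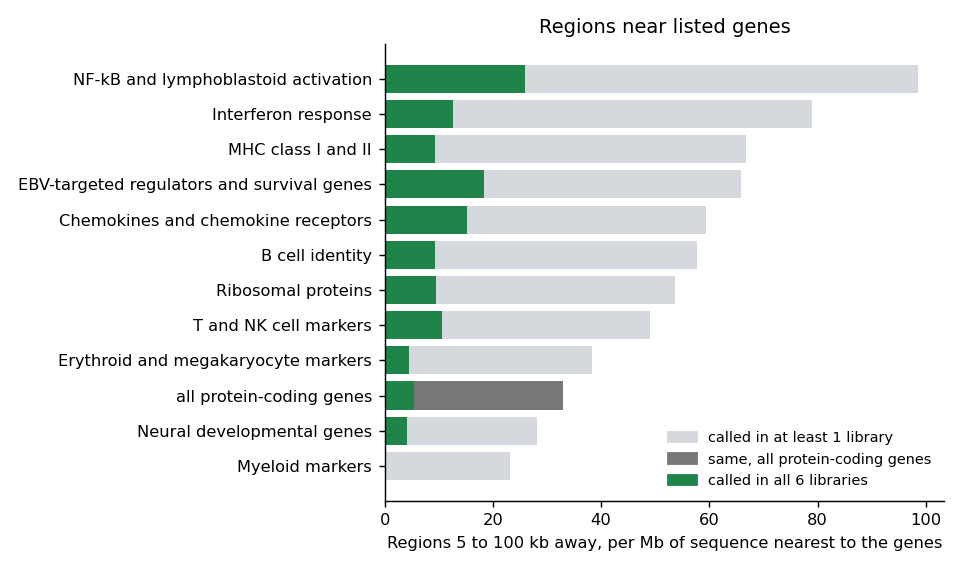
Distal regions per Mb of the sequence nearest to each gene list (horizontal axis), with those called in at least 1 library in grey, all protein-coding genes in dark grey and those called in all 6 libraries in green. NF-kB and activation genes have 98.5 per Mb, all genes 33.0 and myeloid markers 23.2, the last with none in all 6 libraries.

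TNFAIP3 encodes A20, an enzyme that restrains NF-kB signalling, and had the most distal regions of any listed gene, 23 over 190 kb of sequence, of which 5 were in all 6 libraries. The best, chr6:137927915-137928515, lay 44903 bp past the stop of the gene and ranked 8631 and 5172 in live, 3764 and 4479 in high and 6343 and 8279 in low libraries. Another, 54769 bp before the start, ranked 11000 and 12825, 6543 and 7090, and 16036 and 7700 in the same order. The other 3 in all 6 libraries lay 38247 bp before the start and 21502 and 56993 bp past the stop. CD83, a surface marker of activated B cells, had 12 distal regions with 5 in all 6 libraries. NFKBIA, the NF-kB inhibitor gene, had 9 with 2, and the chemokine receptor gene CCR7 had 7 with 2. JUNB, NFKBIE, LTA, TNF, EBI3, RELB and LMNA had no sequence of their own in the window, so no distal region could be assigned to them. IL10, CFLAR and CD80 had 11.7, 10.2 and 4.94 kb in the window and no distal region.

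CXCR4, the receptor for the chemokine CXCL12, had 15 distal regions, 7 of them in all 6 libraries. That at chr2:136132299-136132370, 14185 bp before the start, ranked 4100 and 2852 in live, 1857 and 790 in high and 5572 and 3233 in low libraries. A further region 88919 bp before the start ranked 9520 and 2801, 4769 and 4744, and 7788 and 5656. Of BCL6, the germinal centre repressor, 8 distal regions were called and 4 were in all 6 libraries. CD44, an adhesion receptor gene, had 12 with 4. MYC had 10 with 2, at 40358 bp before and 52844 bp after the gene on the chromosome: the first ranked 12655 and 11425 in live, 15987 and 11866 in high and 15750 and 16533 in low libraries. RUNX3 had 9 with 2, of which chr1:25022551-25022633, 57454 bp before the start and 1 kb from MIR4425, ranked 5089 and 3906, 4464 and 4090, and 4399 and 5915. Of the same list, RUNX1, HES1, SLAMF1 and CDKN2A had no distal region over 125, 96.3, 20.2 and 8.32 kb of sequence.

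Among B cell identity genes, IRF8 had 16 distal regions with 3 in all 6 libraries and IKZF1, the gene of Ikaros, 14 with 3. The region with the best ranks belonged to PAX5, the B lineage commitment factor. It lay at chr9:36766095-36766140, 67152 bp past the stop, and ranked 940 and 1320 in live, 1213 and 1556 in high and 3808 and 1107 in low libraries. BACH2, a repressor that delays plasma cell differentiation, had a region 72352 bp away ranking 954 and 5786, 10914 and 6273, and 6489 and 6075. CD22, MS4A1, CD79A and CD79B had little or no sequence in the window and no distal region. BLNK, SPI1, FCRLA and FCER2 had 11.4, 9.36, 9.29 and 8.41 kb and no distal region either.

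Beside the lists of signalling genes, CD58, the ligand of CD2, had a region 9936 bp away that ranked 4945 and 2547 in live, 4485 and 6295 in high and 5366 and 5837 in low libraries. BCL2, the survival gene, had one 44753 bp away that ranked 4254 and 3596, 3357 and 2528, and 3171 and 4632. The chemokine gene CCL22 had one 18092 bp away that ranked 1158 and 2113, 4266 and 4623, and 8000 and 6157. XCR1, CCL20 and CX3CR1 led the chemokine list, HLA-DQB1, HLA-DOA and HLA-DQA1 the MHC list, and IRF1 and IFI6 were named from the interferon list, all with regions in all 6 libraries.

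Lineage genes of other cells gave regions too. CD5, a T cell marker that some B cells carry, had one 32478 bp away ranking 2635 and 3197 in live, 1974 and 2616 in high and 2747 and 4454 in low libraries. CD2 and GZMB also had regions in all 6 libraries. The myeloid factor gene CEBPA had one in 5 libraries, LYZ one in 4 and CD33 one in 2. TFRC, which dividing cells also use, and SLC4A1, the band 3 gene of red cells, had regions in all 6 libraries. NKX2-2 and LHX2, transcription factor genes of the brain, had 1 and 2 regions in all 6 libraries, the NKX2-2 region ranking 9064 and 4072, 5120 and 6114, and 5060 and 8004. RPS14 was the 1 ribosomal gene with regions in all 6 libraries, 3 of its 4, and its nearest neighbour on the other side was CD74, the MHC class II invariant chain gene.

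**Figure D5:**
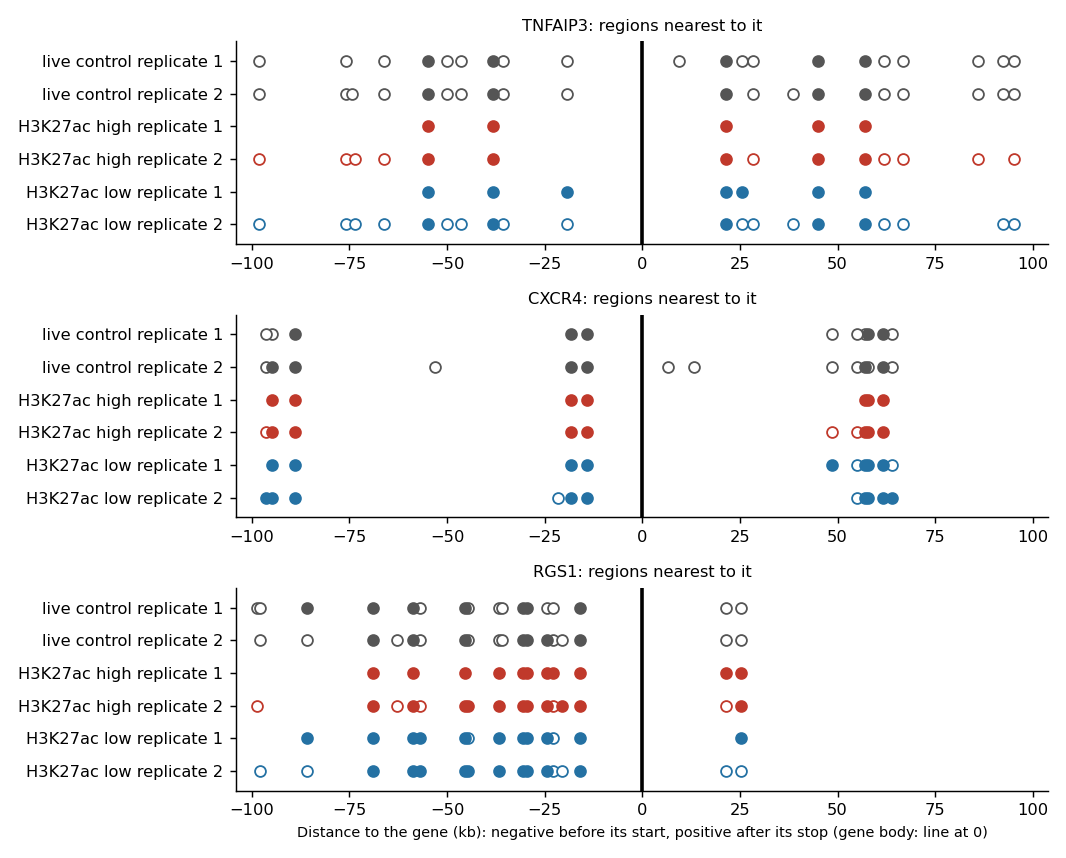
Distal regions nearest to TNFAIP3, CXCR4 and RGS1 by distance to the gene in kb (negative before its start, positive after its stop), 1 row per library, filled where the region is among the best 24326 of that library and open where it ranks lower. TNFAIP3 has 23 regions with 5 in every row, CXCR4 15 with 7 in every row, and the RGS1 regions crowd on the side before its start.

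RGS1, chosen after its values were seen, encodes a regulator that shortens chemokine receptor signalling. It was nearest to 19 distal regions, of which 14 formed an unbroken row over 52.9 kb with gaps under 12 kb, 9 of the 14 in all 6 libraries. The best, chr1:192517024-192517043, lay 58740 bp before the start and ranked 2268 and 3525 in live, 53 and 478 in high and 736 and 3176 in low libraries. The region closest to the start, 16035 bp away, ranked 6890 and 11730, 1184 and 2127, and 5756 and 7774.

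Rows of this kind were the exception. With gaps under 12 kb, 8622 distal regions stood alone (40.6%), and 404 rows of 5 or more held 2565. The share called in all 6 libraries was 12.3% for regions alone, 17.6% in rows of 2 to 4 and 27.4% in rows of 5 or more. The longest, of 19 regions over 92.1 kb, spanned NEAT1 and MALAT1, abundant nuclear noncoding RNAs, and had 4 in all 6 libraries. Others of the 8 longest lay in the T cell receptor gamma genes (17 regions, 2 in all 6), between MACC1 and ITGB8 (16 and 5), between SLC22A5 and IRF1 over the noncoding gene CARINH (15 and 3), between RIPK2 and OSGIN2 (13 and 3), between CHD7 and CLVS1 (12 and 6) and beside USP3 (12 and 4). CARINH lies in the cytokine gene region next to IRF1, and RIPK2 encodes a kinase that acts upstream of NF-kB.

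Noncoding genes lay at 6802 distal regions (32.1%), inside the gene or within 1 kb of it. Density was 36.4 per Mb there, 7.02 in all 6 libraries, against 31.6 and 4.87 elsewhere. Of these regions, 19.3% were in all 6 libraries, and 15.4% of the rest. Long noncoding RNAs accounted for 5733 regions, at 37.7 per Mb, and pseudogenes for 1050, at 27.3 per Mb.

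Genes of transfer and small nuclear RNAs had the highest densities of the kinds counted. The sequence counted was 0.449 Mb for 253 transfer RNA genes and 0.179 Mb for 88 small nuclear RNA genes. For 6539 long noncoding RNA genes it was 152 Mb, so the densities cover unlike lengths per gene. By gene, 52.2% of transfer RNA, 34.1% of small nuclear RNA and 42.8% of long noncoding RNA genes had a distal region. Transfer RNA genes, which RNA polymerase III transcribes, had 285 regions per Mb, 86.9 of them in all 6: 132 of the 253 genes in the window had a distal region. The leading one, at TRQ-TTG1-1 on chr17:49192814-49192973, ranked 2218 and 1988 in live, 4980 and 2971 in high and 3003 and 1817 in low libraries. Genes of spliceosomal small nuclear RNAs had 201 regions per Mb, and 23 of their 36 regions (63.9%) were in all 6 libraries. RNVU1-15, a variant U1 gene, led with chr1:144412285-144413145, which ranked 2100 and 1700, 1387 and 1668, and 3027 and 2828. The U5 genes RNU5A-1 and RNU5B-1, 9386 and 17951 bp from PARP16, both had a region in all 6 libraries. Many of these genes are near-identical copies, and how reads with several matches were treated is not given in the sources used here, so the copy a read came from is uncertain.

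MicroRNA genes had a distal region at 36 of 333 genes in the window, and 9 had one in all 6 libraries. The hairpins so marked included MIR4425 beside RUNX3, MIR4449 at DANCR, MIR3945, MIR4645 and MIR1915. MIRLET7D, downstream of the MIRLET7A1HG start printed above, had its own region in 5 libraries. Of the antigen receptor loci, the lambda light chain locus had 39 distal regions, 2 of them in all 6 libraries, and 28 and 31 of the 39 in the live lists, 2 and 17 in high and 11 and 22 in low lists. The T cell receptor gamma locus had 19 with 2, the alpha locus 17 with 4 and the beta locus 12 with 2. Of all 21222 distal regions, 15170 and 15722 were in the live lists, 4526 and 9499 in high and 8198 and 10733 in low lists. The share in all 6 was 16.6%. Since the lists differ in length, no change at a locus is read from these counts. Few regions of the heavy chain locus, 3 of 67, fell in the distal window.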

How the data were processed

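Per the labels' protocols, 6 libraries of GM12878 cells were transposed. Per the submitters' processing notes the tools were bcl2fastq, FastQC, Bowtie2, Picard and MACS2 and the builds hg38 and hg19; versions, settings, the Tn5 shift and the fate of multiply matching reads were not given in the sources used here. The deposited lists give 1 summit and a score per row, read as the −log10 of a p-value or q-value from the authors' caller, called per library. Scores began at 2.02. A score grows with depth, which is unknown, so it was used only to rank regions within a list, with ties broken by a seeded draw. The viral contig is named as in the hg38 analysis set, and coordinates are 1-based on hg38.

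Groups and replicate numbers came from the titles. Summits were chained as described, and each region was placed by its midpoint against 19126 protein-coding genes of RefSeq GRCh38.p14. Strand, known for 15101 of them, and promoter and microRNA sequences came from RefSeq tables. Group values were compared by exact permutation of libraries and kinds of region by exact sign-flip tests over the libraries, with Benjamini-Hochberg adjustment over 4 comparisons. Python 3.11.15, numpy 2.4.6, pandas 2.3.3 and scipy 1.17.1 were used, and the measures were tested on simulated lists. Named regions were the 10 in all 6 lists with the best worst rank, the 6 best of each kind held by 1 group, up to 3 genes per list, the 8 longest rows and the microRNA hairpins; some of these are not reported here. The members, lists and rules were chosen with earlier results of these data known. Genes named for their number of regions, and RGS1 and MIR17HG, were chosen after values were seen. Alternatives covered list length, score minimum, chaining distance, window, noncoding genes, gene density, a replicate block and each library left out.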

Additional observations from a re-analysis of the deposited data

Results flagged for a closer look

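Summits on the Epstein-Barr virus contig lay outside every comparison above. There were 16 and 17 in the live control lists, 11 and 10 in the high lists and 15 and 18 in the low lists, so the viral genome that this line carries gave summits in every library. The lists differ in length, and no comparison between groups was made. Each group has 2 libraries, so no test for an outlying library within a group was made.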

How the results depend on the processing

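Of 166 values under other settings, 112 kept their direction and their side of the threshold or stayed within 1.5 times the reported count. For the shares and the distance, the smallest p of the exact permutation test, 0.333 or 0.0667, lies above that threshold. Only their direction could therefore change. With any library left out, no rank difference can fall below the threshold. The tally is thus partly set by the number of libraries and is no measure of robustness. Over the full lists, the share of distal regions turned to -1.16 points for high minus low. There were 80 high-only regions (0.377%, against 0.358% of all regions) and 703 low-only regions (3.31%, against 3.06%). Sorted-only regions numbered 4 (0.0188%, against 0.0751%) and live-only regions 2071 (9.76%, against 8.64%). The full lists differ in length. Counts at the other settings below have no share over all regions beside them and describe the settings only. With the best 12163 regions, low-only, sorted-only and live-only counts were 104, 62 and 127, and with the best 2432, chosen after seeing the data, the 4 counts were 49, 11, 6 and 25. Among best regions alone, the difference in median percentile was -31.0 from gene ends, 0.712 from flanking and 2.18 from desert regions, and 2253 were in all 6. With a score of at least 5 it was -34.4 from gene ends, -0.485 from flanking, 0.172 from inside genes and 5.48 from desert regions; under both settings the adjusted p from gene ends and deserts was 0.0625 (exact sign-flip test). Without distal regions at noncoding genes, the difference from inside genes was -1.61, with 2219 in all 6 and 183 low-only. The cause of these shifts was not tested. Leaving out each library gave -36.7 to -33.9, -1.4 to -1.19 and 6.63 to 8.24 points against gene ends, flanks and deserts, 3550 to 5798 in all others, 232 to 1138 high-only, 279 to 757 low-only, 151 to 234 sorted-only and 297 to 622 live-only regions. With a replicate block the high minus low share was 0.358 points (exact sign-flip test, p = 0.5, the smallest for 2 pairs) and the distance difference 1090 bp. Differences between replicates 1 and 2 over 3530 regions had Pearson's r of -0.0329 between live and high and -0.0101 between live and low. Between high and low r was 0.084. Whether the replicate numbers pair libraries was not tested. Depth is unknown, and list length limits what can be called absent.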

Other observations

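By chromosome, the share of distal regions called in all 6 libraries ranged from 10.0% on chromosome 22 (29 of 290) to 22.6% on chromosome 21 (49 of 217). Chromosomes 19 and 20 stood at 10.2% each, and chromosome 17 at 12.1%. Chromosome 19 held 17 low-only and 1 high-only distal regions, and chromosome 22 held 6 and 0, while chromosome 5 held 22 and 31. The counts have no share over all regions of the same chromosome beside them. Whether the split is particular to distal regions was not tested. Density per Mb of window sequence was highest on chromosome 6, which carries the MHC, at 39.1, and lowest on chromosome 21, at 22.6. These are values from 2 libraries a group, and no difference between chromosomes was tested.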
